A study of Mus musculus with 8 samples.

Results

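The 10 genes described here belong to the Notch pathway and were taken by name: the receptors Notch1, Notch2 and Notch3, the ligands Dll1, Dll4 and Jag1, and the target genes Hes1, Hey1, Hey2 and Heyl. They are 10 of the 24980 gene symbols in the count table, and all 10 were among the 17582 genes with enough counts to be tested. RNA sequencing had been carried out on 4 groups of mouse skeletal myogenic cells, with 2 biological replicates each. TF cells were freshly isolated, teratoma-derived myogenic progenitors. Their source was EGFP-labelled E14 embryonic stem cells that formed teratomas in irradiated, cardiotoxin-injured tibialis anterior muscles of NSG-mdx4Cv mice, an immunodeficient and dystrophin-deficient host, and, per the methods of the study, they were sorted as CD31- CD45- α7-integrin+ VCAM-1+ cells. TE cells were teratoma-derived progenitors grown on gelatin in expansion medium to passage 8. SF and SE cells were endogenous satellite cells, freshly isolated and at passage 8. The teratoma-derived cells came from 1 parent stem cell line, so their replicates do not sample different donor genotypes. The age and strain of the satellite cell donors, and whether the expanded cells were sorted again before RNA extraction, are not given in the sources used here.

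Notch receptors are cut by proteases when a Delta or Jagged ligand on a neighbouring cell binds them, and the released intracellular domain then joins the DNA-binding protein RBPJ to activate genes such as those of the Hes and Hey families of repressors. In adult muscle the pathway is known for keeping satellite cells quiescent and for holding back their differentiation. NOTCH3, HEYL, HEY1 and HEY2 are also well known in blood vessels, and DLL4 is a ligand of endothelial cells.

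Deposited totals ran from 11930961 to 21146632 estimated counts per library. Levels are given in CPM, a count scaled to the depth of its library, here after the trimmed-mean (TMM) scaling of edgeR, and a gene was called changed at an adjusted p below 0.05 with a change of more than 0.32 on the log2 scale, the thresholds of the study. With 2 samples a group, these p-values rest on the spread between replicates, estimated over all 4 groups together. They do not measure variation beyond those samples. The satellite cell factor Pax7 was present in every library, at 199 to 319 CPM in the fresh groups and 78.2 to 115 CPM in the expanded groups. Of the other listed satellite cell markers, Myf5, Vcam1 and Sdc4 were lower after expansion in each origin, and Itga7 and Cdh15 were higher. The differentiation factor Myog was at 0.51 and 0.87 CPM in SF, at 86.0 and 94.0 CPM in TF, and at 263 to 900 CPM in the expanded groups. Markers of endothelial cells, which the CD31- gate of the teratoma-derived cells should remove, summed over 8 genes to 80.8 to 390 CPM in the fresh groups and to 2.59 to 5.09 CPM in the expanded groups, where 4 to 6 of the 8 were at 0, among them Kdr in all 4 libraries. Markers of fibro-adipogenic cells summed over 5 genes to 880 to 1684 CPM in the fresh groups and to 1.45 to 7.03 CPM in the expanded groups. Haematopoietic markers, over 6 genes, reached 368 CPM in TF replicate 1 against 32.1 CPM in TF replicate 2 and 25.0 to 26.0 CPM in SF, and were at 0.76 to 6.52 CPM after expansion. Of 7 pericyte and smooth muscle genes, 6 fell in TE against TF and 5 in SE against SF, and Acta2, the smooth muscle actin gene, rose in both. Kcnj8 was at 0 in all 4 expanded libraries, and Rgs5 went from 119 and 91.5 CPM in TF to 0 in TE, and from 313 and 295 CPM in SF to 62.2 and 65.6 CPM in SE. The sum of this list, 1057 to 1218 CPM in the fresh groups and 464 to 1620 CPM in the expanded groups, was carried by Acta2 after expansion, at 343 to 1521 CPM. These sums moved with several of the changes below, and their part in them was not tested. In bulk RNA, fewer cells of a type and less RNA per cell cannot be told apart.

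**Figure D1:**
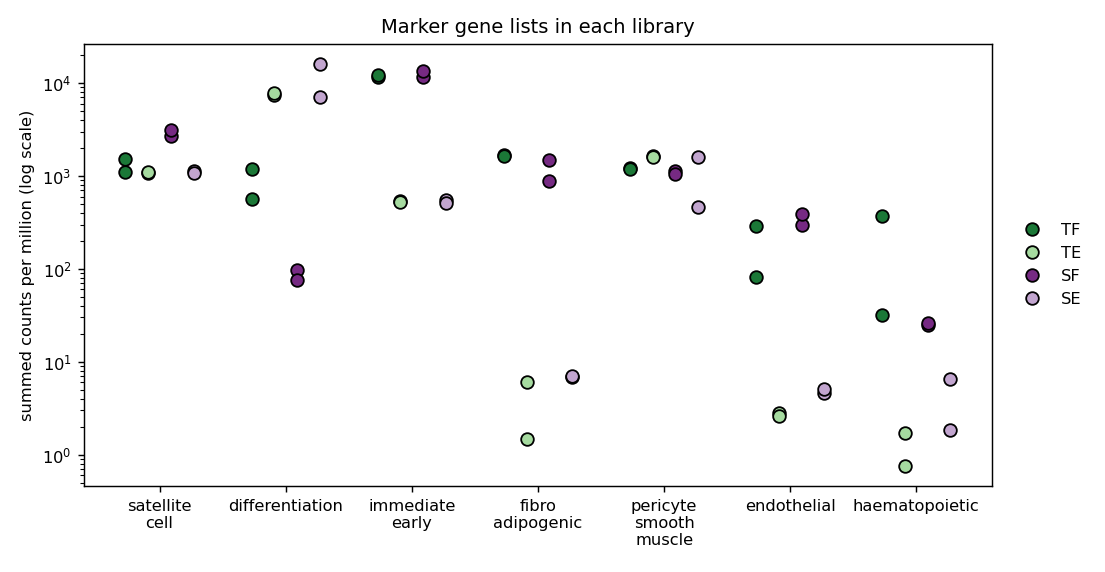
Summed level of each marker list (CPM, log scale) in the 2 libraries of each group. The endothelial, haematopoietic, fibro-adipogenic and immediate early lists are lower in all 4 expanded libraries than in any fresh library, whereas the differentiation list is higher in all 4 expanded libraries.

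With expansion, 9 of the 10 Notch genes fell in teratoma-derived cells and 8 of the 10 in satellite cells, and Dll1 rose in both. Of all genes tested, 16.2% fell and 9.86% rose in TE against TF, and 19.8% fell and 20.9% rose in SE against SF. The median log2 fold change of the members was -1.81 in teratoma-derived cells, beside -0.18 for all genes and the same with Dll4 at its bound, and -2.60 in satellite cells, beside -0.23. Only Hes1 in satellite cells was not called. Without TF replicate 1, the library with the most haematopoietic transcripts, 8 of the 10 were still called in TE against TF.

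**Figure D2:**
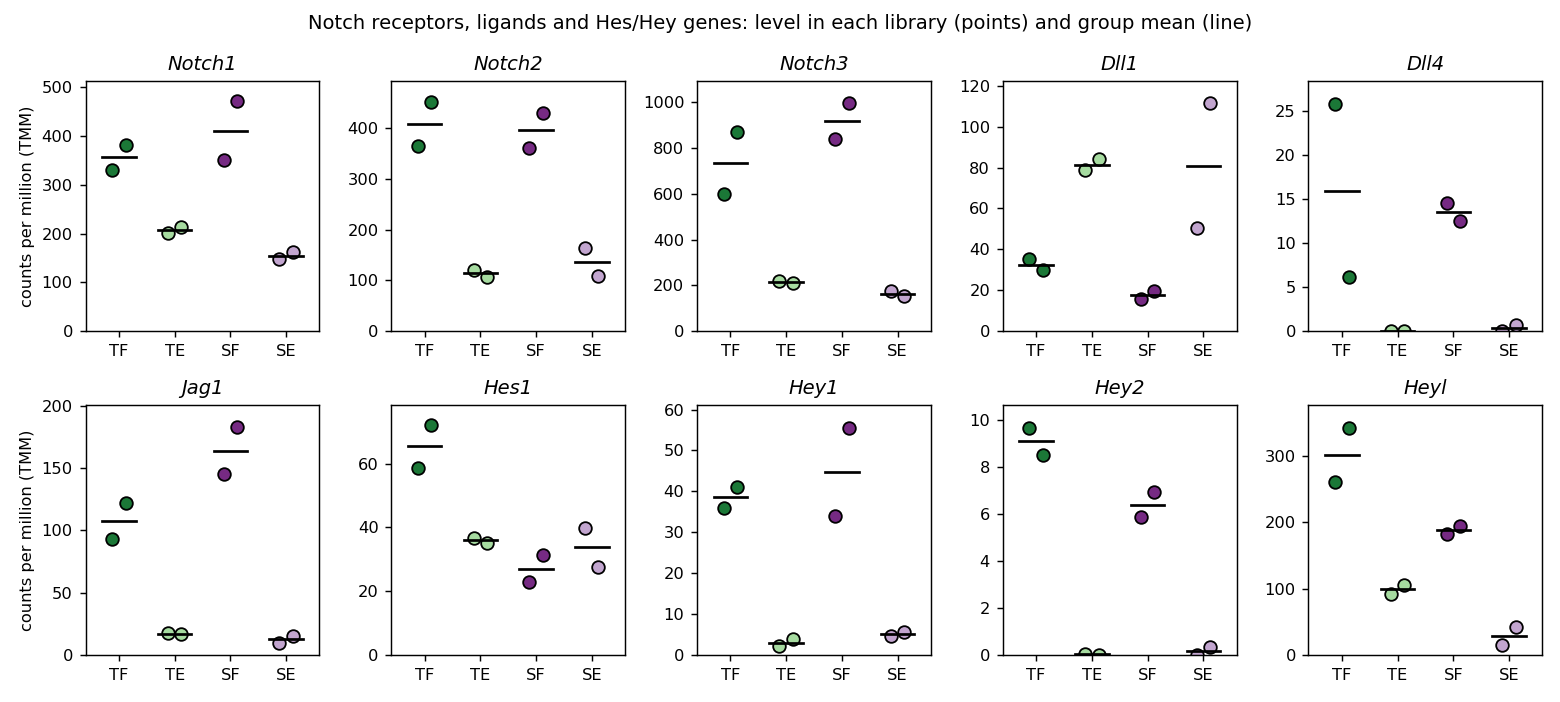
Level of each member (CPM, linear axis from 0) in the 2 libraries of each group, with lines at the group means. Receptors, Jag1, Hey1, Hey2, Heyl and Dll4 are high in the fresh groups TF and SF, Dll1 is high in the expanded groups, and Hes1 is highest in TF.

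Notch3 (chr17:32120820-32166852, minus strand, GRCm38) was the most abundant receptor per transcript length in all 8 libraries and showed the largest fall of the 3 in satellite cells. Its level was 600 and 867 CPM in TF, 217 and 212 CPM in TE, 836 and 997 CPM in SF, and 173 and 155 CPM in SE. The fresh and expanded replicates did not overlap in either origin. Notch3 fell 3.41-fold with expansion of teratoma-derived cells (log2 fold change -1.77, standard error 0.23, adjusted p = 0.000415) and 5.59-fold with expansion of satellite cells (-2.48, standard error 0.23, adjusted p = 4.17e-05). Notch2 (chr3:98013527-98150361, plus strand) was at 364 and 452 CPM in TF, 121 and 106 CPM in TE, 360 and 430 CPM in SF, and 164 and 109 CPM in SE. Again every fresh library lay above every expanded library. Notch2 fell 3.58-fold in teratoma-derived cells (-1.84, standard error 0.24, adjusted p = 0.000489) and 2.89-fold in satellite cells (-1.53, standard error 0.24, adjusted p = 0.000828).

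Notch1 (chr2:26457903-26516663, minus strand) was at 331 and 382 CPM in TF, 202 and 214 CPM in TE, 350 and 472 CPM in SF, and 148 and 161 CPM in SE. Its fall was 1.72-fold in teratoma-derived cells (log2 fold change -0.78, standard error 0.20, adjusted p = 0.0180) and 2.66-fold in satellite cells (-1.41, standard error 0.20, adjusted p = 0.000506). The first of these was lost when any of its 4 libraries was left out, with adjusted p of 0.0628 without TF replicate 1, 0.165 without TF replicate 2, 0.195 without TE replicate 1 and 0.144 without TE replicate 2. The span of Notch1 overlaps that of the annotated antisense gene 0610009E02Rik, and whether their exons overlap was not examined. As the strand setting of the counting is not given in the sources used here, some Notch1 counts may belong to that gene. Per kb of the longest annotated transcript, the 4 receptors, Notch4 included, summed to 147 to 217 CPM per kb in the fresh groups and to 47.0 to 59.9 CPM per kb in the expanded groups. Notch3 supplied 50.9% to 58.7% of that sum in fresh cells and 40.8% to 45.2% after expansion, while the share of Notch1 was 20.8% to 23.8% in fresh and 29.4% to 38.1% in expanded cells.

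Among the ligands, Jag1 and Dll4 fell and Dll1 rose. Jag1 (chr2:137081456-137116644, minus strand) encodes a Jagged-type ligand. Its level was 93.2 and 122 CPM in TF, 17.6 and 16.6 CPM in TE, 145 and 183 CPM in SF, and 9.38 and 15.5 CPM in SE. Every expanded library lay far below every fresh one. The fall was 6.29-fold in teratoma-derived cells (log2 fold change -2.65, standard error 0.28, adjusted p = 0.000130) and 13.2-fold in satellite cells (-3.72, standard error 0.29, adjusted p = 1.59e-05).

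Dll1 (chr17:15367354-15376872, minus strand) encodes a Delta-like ligand and was the only member that rose. It was at 35.2 and 30.0 CPM in TF, 78.6 and 84.3 CPM in TE, 15.8 and 19.8 CPM in SF, and 50.3 and 112 CPM in SE. The 2 SE replicates differed more from each other than did those of any other group. Dll1 rose 2.50-fold in teratoma-derived cells (log2 fold change 1.32, standard error 0.34, adjusted p = 0.0174) and 4.55-fold in satellite cells (2.19, standard error 0.35, adjusted p = 0.000919). In teratoma-derived cells the call was lost without TF replicate 2 (adjusted p = 0.0718) or TE replicate 2 (adjusted p = 0.0523). In satellite cells the log2 fold change was 1.51 without SE replicate 2. The summed differentiation markers, 8 genes, also separated fresh from expanded libraries, at 75.0 to 1181 CPM against 7121 to 16024 CPM, and like Dll1 were highest in SE replicate 2.

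Dll4 (chr2:119325784-119335962, plus strand) was at 25.8 and 6.14 CPM in TF, at 0 in both TE libraries, at 14.5 and 12.6 CPM in SF, and at 0 and 0.74 CPM in SE. The endothelial marker sums were 288 and 80.8 CPM in the TF replicates, the same order as Dll4, and 298 and 390 CPM in the SF replicates, the opposite order. Against a floor of 3 counts per library, Dll4 was at least 104-fold lower in TE than in TF (adjusted p = 0.00388), and at least 40.0-fold lower without TF replicate 1. In satellite cells the deposited counts were 387 in SF and 13 in SE, a 40.3-fold ratio (95% interval 23.3 to 76.3, counting error only), and the fitted log2 fold change was -5.22 (standard error 1.27, adjusted p = 0.0110). All 13 SE counts were in SE replicate 2, and without SE replicate 1 the log2 fold change was -4.15. The span of Dll4 overlaps that of the antisense gene Gm14207, so its counts carry the same uncertainty as those of Notch1.

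The mixture of ligand transcripts turned over, whereas their sum was not lower in expanded cells. Summed per kb over Dll1, Dll3, Dll4, Jag1 and Jag2, ligand transcripts were at 33.0 to 44.0 CPM per kb in fresh cells and 39.7 to 55.9 CPM per kb in expanded cells. Jag1 was the most abundant ligand in all 4 fresh libraries, with 46.0% and 65.8% of the sum in TF and 67.7% and 74.04% in SF. After expansion it supplied 7.43% to 7.74% in TE and 4.05% to 4.93% in SE. Dll1 was then the most abundant ligand in both TE libraries and in SE replicate 2, and Jag2, which is not a member, in SE replicate 1. The Jag1 to Dll1 ratio per kb was 1.69 and 2.59 in TF and 5.87 and 5.89 in SF, and it was 0.143 and 0.125 in TE and 0.119 and 0.0885 in SE. Dll4 supplied 4.97% to 19.1% of the sum in fresh cells and at most 0.355% in expanded cells.

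**Figure D3:**
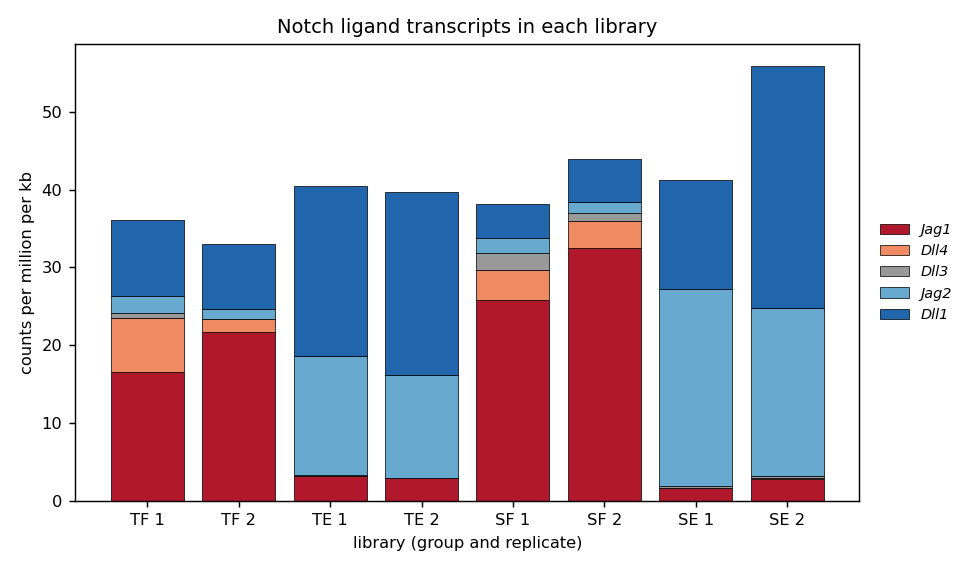
Stacked bars of the 5 Notch ligand transcripts (CPM per kb of the longest annotated transcript) in each library. Jag1 makes up 46.0% to 74.04% of the bars in the fresh libraries, and Dll1 and Jag2 make up most of those in the expanded libraries, whereas the total height stays between 33.0 and 55.9.

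The 3 Hey genes fell in both origins, Hey2 and Hey1 most. Hey1 (chr3:8663359-8667256, minus strand) was at 36.0 and 41.1 CPM in TF, 2.07 and 3.79 CPM in TE, 33.9 and 55.6 CPM in SF, and 4.57 and 5.60 CPM in SE. It fell 13.1-fold in teratoma-derived cells (log2 fold change -3.72, standard error 0.40, adjusted p = 0.000170) and 8.79-fold in satellite cells (-3.14, standard error 0.39, adjusted p = 0.000215). Hey2 (chr10:30832359-30842801, minus strand) was the least abundant target, at 9.67 and 8.54 CPM in TF, 0.050 and 0 CPM in TE, 5.89 and 6.93 CPM in SF, and 0 and 0.34 CPM in SE. It was thus close to absent from all 4 expanded libraries. The TF libraries held 222 Hey2 counts and the TE libraries 1, a 355-fold ratio (95% interval 63.1 to 14097, counting error only). The SF libraries held 184 and the SE libraries 6, a 41.5-fold ratio (95% interval 18.7 to 114, counting error only). All 6 SE counts were in SE replicate 2. In the quasi-likelihood fit, which is separate from these intervals, the adjusted p was 0.00407 in teratoma-derived cells and 0.00934 in satellite cells.

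Heyl (chr4:123233556-123249875, plus strand) was the most abundant target per kb in all 4 fresh libraries. Its level was 260 and 342 CPM in TF, 91.2 and 106 CPM in TE, 181 and 194 CPM in SF, and 15.2 and 41.7 CPM in SE. The 4 groups did not overlap, in the order TF, SF, TE, SE. Heyl fell 3.05-fold in teratoma-derived cells (log2 fold change -1.61, standard error 0.38, adjusted p = 0.0126) and 6.61-fold in satellite cells (-2.72, standard error 0.40, adjusted p = 0.000583). The first call was lost without TE replicate 1 (adjusted p = 0.0599), and the second value was -3.61 without SE replicate 2.

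Hes1 (chr16:30064384-30067796, plus strand), a repressor with a short-lived transcript that also responds to other pathways, departed from the Hey genes. It was at 58.5 and 72.3 CPM in TF, 36.6 and 35.2 CPM in TE, 22.8 and 31.4 CPM in SF, and 39.7 and 27.7 CPM in SE. Both TF libraries stood above the other 6. Among these, the SE libraries overlapped both TE and SF, whereas both TE libraries lay above both SF libraries. Hes1 fell 1.82-fold with expansion of teratoma-derived cells (log2 fold change -0.86, standard error 0.26, adjusted p = 0.0358). This call was lost without TF replicate 1 (adjusted p = 0.0702), TF replicate 2 (0.236), TE replicate 1 (0.181) or TE replicate 2 (0.211). In satellite cells the log2 fold change was 0.32 (95% interval -0.27 to 0.90, adjusted p = 0.346). Of the 4 target transcripts per kb, Hes1 supplied 21.6% to 34.4% in fresh cells and 49.1% to 83.8% in expanded cells, where it was the most abundant in all 4 libraries.

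**Figure D4:**
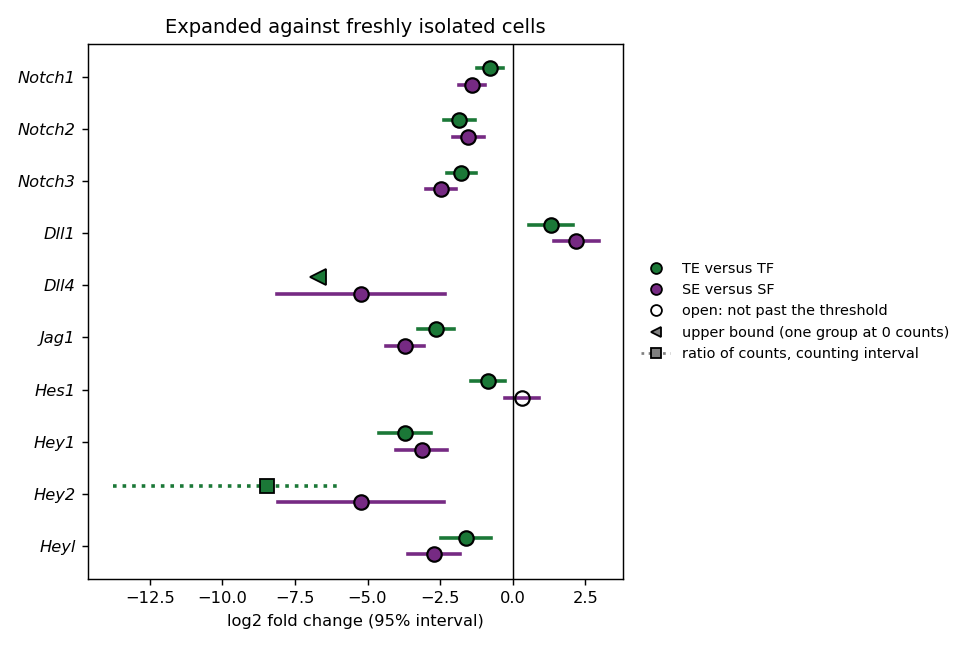
Log2 fold change of each member with expansion, in teratoma-derived (TE versus TF) and satellite cells (SE versus SF), with 95% intervals. Dll4 in TE is drawn at its bound, at least 104-fold lower, and Hey2 in TE as a ratio of counts with its counting interval, and only Hes1 in satellite cells was not called.

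Whether expansion changed a gene by a different amount in the 2 origins was tested with the difference between the TE versus TF and SE versus SF effects. None of the 10 members was called by edgeR's quasi-likelihood test, against 4.70% of all genes with a higher and 9.62% with a lower difference. At an unadjusted p below 0.05 there were 4 members, Notch1, Notch3, Jag1 and Hes1, against 28.9% of all genes, and DESeq2 called 3 of these, Notch1, Notch3 and Jag1. The difference was -1.18 on the log2 scale for Hes1 (95% interval -2.01 to -0.35, adjusted p = 0.0621) and 1.07 for Jag1 (0.23 to 1.90, adjusted p = 0.0891). It was 1.11 for Heyl (-0.08 to 2.30, adjusted p = 0.201) and -0.31 for Notch2 (-1.05 to 0.43, adjusted p = 0.602). Without SE replicate 2, Jag1 (adjusted p = 0.00857), Hes1 (0.0178) and Heyl (0.000589) were called, without SE replicate 1 Dll1 (0.0171) and Dll4 (0.0136), and without SF replicate 2 Hes1 (0.0365).

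Between origins, 1 member was called among fresh cells and 1 among expanded cells. At an unadjusted p below 0.05 in the quasi-likelihood test there were 3 and 2 members, against 37.1% and 19.8% of all genes. Among fresh cells, Hes1 was called higher in TF than in SF, and no member was called lower, against 15.1% of all genes higher and 9.13% lower. Hes1 was 2.41-fold higher in TF (log2 fold change 1.27, standard error 0.26, adjusted p = 0.00808), a call that was lost without TF replicate 2 (adjusted p = 0.0556) or SF replicate 1 (0.0523). For the receptors the log2 fold change was -0.21 for Notch1 (95% interval -0.65 to 0.24), 0.05 for Notch2 (-0.48 to 0.57) and -0.32 for Notch3 (-0.81 to 0.17). Dll1 was at 0.87 (0.11 to 1.63, adjusted p = 0.0914) and Jag1 at -0.61 (-1.19 to -0.03, adjusted p = 0.119). The TF and SF replicates did not overlap for Dll1 and Jag1, nor for Hes1, Hey2 and Heyl, and the share among all genes was not counted. DESeq2 called Jag1 lower in TF (adjusted p = 0.0330), and 1 alternative each called Dll1 and Heyl higher in TF. The interval was -1.01 to 0.58 for Hey1, -1.77 to 2.78 for Hey2, -0.16 to 1.52 for Heyl and -2.07 to 2.54 for Dll4. The median over the members was 0.14, beside 0.08 for all genes. Fresh TF cells also had higher differentiation markers than fresh SF cells, 566 to 1181 CPM against 75.0 to 98.1 CPM.

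After expansion, Heyl was the member called between origins. It was 3.47-fold higher in TE than in SE (log2 fold change 1.80, standard error 0.39, adjusted p = 0.0225), with no other member called, against 3.15% of all genes higher and 4.07% lower. The call was lost without TE replicate 2 (adjusted p = 0.0532) and with only these 2 groups in the fit (0.0726), and without SE replicate 2 the log2 fold change was 2.70. Notch1 was at 0.43 (95% interval -0.02 to 0.87), Notch2 at -0.27 (-0.79 to 0.26) and Notch3 at 0.39 (-0.10 to 0.88). Jag1 was at 0.46 (-0.14 to 1.06), Dll1 at 0.01 (-0.73 to 0.74), Hes1 at 0.09 (-0.49 to 0.67) and Hey1 at -0.79 (-1.65 to 0.06). Dll4 and Hey2 had 13 and 6 counts in SE and 0 and 1 in TE, too few for a fold. The call of Dll4 depended on the fit, and it was called lower in TE by DESeq2 (adjusted p = 0.0441), with no filter on low counts (0.00215) and without SE replicate 1 (0.0152).

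**Figure D5:**
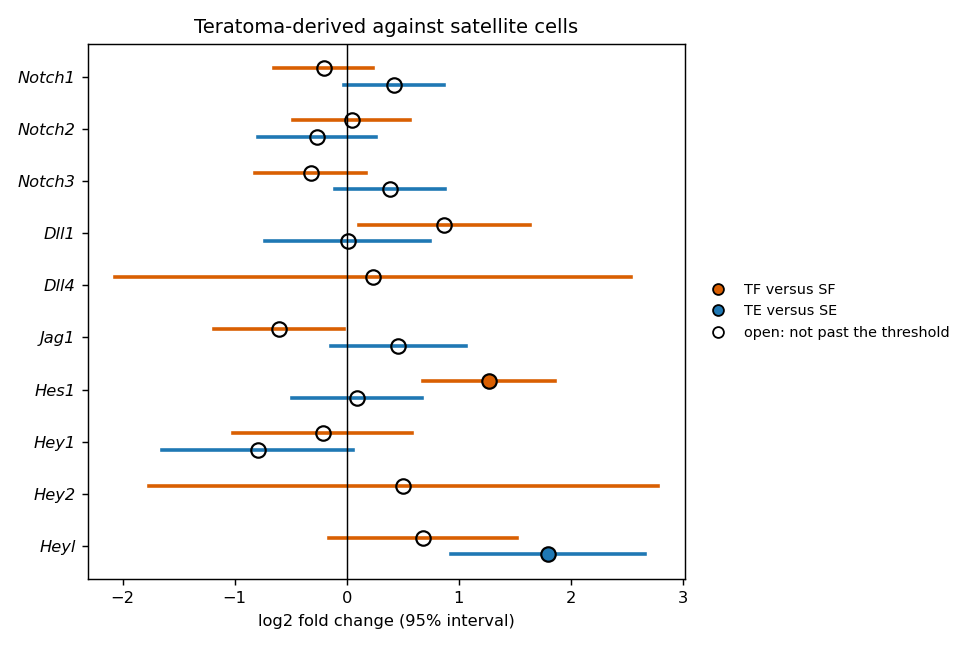
Log2 fold change of each member between origins, among fresh cells (TF versus SF) and expanded cells (TE versus SE), with 95% intervals and open symbols where the threshold was not passed. Only Hes1 in fresh cells (1.27) and Heyl in expanded cells (1.80) were called, and the 2 genes with few counts in expanded cells, Dll4 and Hey2, are not drawn for TE versus SE.

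The study set each engraftable group, TF, TE and SF, against SE, which it treats as poorly engrafting. Those comparisons share the SE libraries, and TF against SE differs in origin and expansion together. In TF against SE, 9 members were higher and Dll1 was lower, with 14.5% of all genes higher and 9.16% lower. The fold was 2.30 for Notch1, 2.98 for Notch2, 4.47 for Notch3, 8.66 for Jag1, 7.57 for Hey1 and 10.6 for Heyl, each higher in TF. Hes1 was 1.94-fold higher (adjusted p = 0.0259) and was not called without TF replicate 1 (0.0522), TF replicate 2 (0.179) or SE replicate 2 (0.119). Dll1 was 2.48-fold lower (adjusted p = 0.0195) and was not called without TF replicate 2 (0.0824), without SE replicate 2 (0.125) or with only the 2 groups in the fit (0.0617). Set side by side, the Heyl level exceeded that of SE by 10.6-fold in TF, 3.47-fold in TE and 6.61-fold in SF, and the Jag1 level by 8.66-fold, 1.38-fold (not called) and 13.2-fold. The Heyl values rest on SE replicates that differed widely, and over the libraries left out the log2 fold change ran from 2.83 to 4.31 in TF against SE, from 1.249 to 2.70 in TE against SE and from -3.61 to -2.15 in SE against SF.

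Of 43 other Notch pathway genes, 39 were tested. In TE against TF 6 were higher and 7 lower, and in SE against SF 8 were higher and 10 lower, with medians of -0.41 and 0.07 on the log2 scale, beside -0.18 and -0.23 for all genes. As shares of the 39 these counts were 15.4% and 17.9%, and 20.5% and 25.6%, beside the 9.86% and 16.2%, and 20.9% and 19.8%, of all genes. Notch4, the receptor known from endothelium, was at 16.7 and 3.67 CPM in TF, 0 and 0.052 CPM in TE, 14.5 and 9.29 CPM in SF, and 0.85 and 1.72 CPM in SE, and it fell in both origins. Like Dll4, it was higher in the TF replicate with more and in the SF replicate with fewer endothelial transcripts. Jag2 was at 10.7 and 6.46 CPM in TF, 78.1 and 67.6 CPM in TE, 9.67 and 7.40 CPM in SF, and 129 and 110 CPM in SE. It rose in teratoma-derived cells (log2 fold change 3.09, standard error 0.29, adjusted p = 6.65e-05) and in satellite cells (3.81, standard error 0.29, adjusted p = 1.49e-05), the same direction as Dll1. Of the ubiquitin ligases that act on ligands, Neurl1a rose in both origins (1.92 in TE and 3.42 in SE) and Neurl1b fell in both (-2.03 and -3.78). Mib2 rose in TE against TF (1.42, adjusted p = 0.00981) and was higher in TE than in SE (1.24, adjusted p = 0.0459).

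No list gene of the receptor cleavage machinery was called in TE against TF, out of 9, beside 9.86% of all genes higher and 16.2% lower. In SE against SF 3 of the 9 rose and 1 fell, beside 20.9% and 19.8% of all genes. Those that rose were the sheddase Adam10 (log2 fold change 1.29) and the gamma-secretase subunits Ncstn (0.71) and Aph1a (1.63). Adam10 was at 38.9 and 54.1 CPM in SF and at 83.7 to 131 CPM in the other 6 libraries. Adam10, Ncstn and Aph1a were also higher in TF than in SF, and their responses to expansion differed between origins (-1.71, -1.15 and -2.06, adjusted p = 0.00686, 0.0327 and 0.0201). Poglut1, which adds O-glucose to Notch receptors, was likewise lowest in SF, at 7.63 and 5.11 CPM there against 16.1 to 28.4 CPM elsewhere.

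Rbpj, the DNA-binding partner of the Notch intracellular domain, did not fall with the targets. It was at 133 and 123 CPM in TF, 276 and 274 CPM in TE, 165 and 203 CPM in SF, and 215 and 223 CPM in SE. Rbpj rose in TE against TF (log2 fold change 1.10, standard error 0.18, adjusted p = 0.00175), and in SE against SF it was at 0.25 (standard error 0.18, adjusted p = 0.266). Of the 3 Mastermind coactivators, Maml3 rose in SE against SF (1.70) while Maml1 (-0.90) and Maml2 (-1.28) fell. Maml3 was lower in TE than in SE (-1.32), with the responses to expansion differing by -2.01 (adjusted p = 0.00245). Nrarp, a Notch target and feedback inhibitor, was at 0.69 to 10.1 CPM and was called in none of the comparisons, with 7.12 and 0.69 CPM in the SE replicates. Hes6, a Hes family member associated with myogenic differentiation, rose in both origins. It was at 20.6 and 18.6 CPM in TF, 85.3 and 87.2 CPM in TE, 3.85 and 2.96 CPM in SF, and 162 and 147 CPM in SE, and its rise was smaller in teratoma-derived cells (2.14) than in satellite cells (5.51, difference -3.37, adjusted p = 0.000196).

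Of 9 inhibitors and ubiquitin ligases of the receptor side, none rose, 4 fell in TE against TF and 5 fell in SE against SF. Of all genes, 9.86% rose and 16.2% fell in TE against TF, and 20.9% rose and 19.8% fell in SE against SF. Numb, an inhibitor of Notch, fell in teratoma-derived (-1.07) and satellite cells (-2.19), and these differed by 1.11 (adjusted p = 0.0446). The Deltex genes Dtx4 and Dtx3l fell in both. Dtx4 went from 216 and 296 CPM in TF to 42.0 and 40.4 CPM in TE, and from 181 and 214 CPM in SF to 22.2 and 32.8 CPM in SE. Dtx1 was at 0 in all 4 expanded libraries, which is at least 96.0-fold lower in TE than in TF and at least 15.1-fold lower in SE than in SF, although the SF replicates, at 4.58 and 0.13 CPM, differed widely and SF replicate 2 alone gives no bound. In TF against SF 6 pathway genes were higher and 1 lower (15.4% and 2.56% of the 39, beside 15.1% and 9.13% of all genes), and in TE against SE 1 was higher and 3 were lower (2.56% and 7.69%, beside 3.15% and 4.07%). The contrast of the 2 expansion responses was called higher for 2 pathway genes, Maml1 and Numb, and lower for 5, Adam10, Ncstn, Aph1a, Maml3 and Hes6. These are 5.13% and 12.8% of the 39, beside 4.70% and 9.62% of all genes. In TF against SE 8 were higher and 5 lower (20.5% and 12.8%, beside 14.5% and 9.16%).

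A further list held 5 genes linked to Notch and RBPJ in satellite cells, the collagen genes Col5a1, Col5a3, Col6a1 and Col6a2 and the calcitonin receptor gene Calcr, which marks quiescent satellite cells. All 5 fell in TE against TF and in SE against SF, beside 16.2% and 19.8% of all genes. Calcr was at 34.6 and 51.9 CPM in TF, 81.6 and 84.3 CPM in SF, and at 0 in all 4 expanded libraries. It was at least 282-fold lower in TE than in TF and at least 530-fold lower in SE than in SF. Col6a2 fell by 5.70 on the log2 scale in teratoma-derived cells and by 2.74 in satellite cells, and Col5a1 by 2.76 and 1.17. Col5a1, Col6a1 and Col6a2 were higher in TF than in SF and Calcr was lower (log2 fold change -0.94, adjusted p = 0.0496). Of all genes, 15.1% were higher and 9.13% lower there. The 5 were each higher in TF than in SE, beside 14.5% of all genes. None was called between TE and SE, where 3.15% of all genes were higher and 4.07% lower. Col5a1, Col6a1 and Col6a2 had a more negative response to expansion in teratoma-derived cells, beside 9.62% of all genes. Fibro-adipogenic cells are also rich in these collagens, and their markers fell with them, from 880 to 1684 CPM to 1.45 to 7.03 CPM.

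Across the 8 libraries, the members other than Dll1 and Hes1 moved together. As a description over libraries that fall into 4 groups of 2, Pearson's r of the log2 levels was 0.70 (Notch2 and Heyl) to 0.99 (Notch3 and Jag1) among these 8, and it was -0.92 to -0.014 between Dll1 and the other 9. Hes1 was at -0.014 to 0.35 with the other 9. Among all genes tested, those whose profile was most like that of Jag1 were Tmtc2, Cebpd and Nr4a1 (r = 0.998, 0.996 and 0.993). Nr4a1 is an immediate early gene of the kind induced by cell isolation, and the summed immediate early list of 8 genes was at 11626 to 13479 CPM in the fresh groups and 506 to 556 CPM in the expanded groups. Whether isolation contributed to the fresh levels of the members was not tested. The nearest profiles were Spop for Notch3 (0.996), Ifnar2 for Notch1 (0.990), Angpt4 for Notch2 (0.994), Mfn2 for Dll1 (0.992) and Mal for Dll4 (0.997). They were Pofut2 for Hes1 (0.995), Dennd3 for Hey1 (0.995), Synm for Hey2 (0.998) and Itga1 for Heyl (0.991).

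Promoters were available for 7 of the 10 members in the RefSeq table (GRCm38.p6), and not for Hes1, Hey1 and Heyl. The 250 bases before each start were searched on both strands for GTGGGAA, the letters RBPJ is known to bind, and for its core TGGGAA, which every match of the longer motif also contains. GTGGGAA was in 5.42% and TGGGAA in 21.6% of 32851 promoters. Of the 7 members only Hey2 held either, with 1 match of both at the same place, 207 bases before the start. CAGCTG, an E-box of the kind bound by myogenic factors such as MYOD1, was added after the values were seen and was in 13.0% of promoters. Among the members it was in Dll1, 132 bases before the start in 1 of its 2 listed promoters, and in Jag1, 82 bases before. Dll1 and Jag1 changed in opposite directions. The Jag1 match lies inside the annotated Jag1 gene. The Notch1 window and that of the other Dll1 promoter also lie wholly inside their annotated genes. The Hey2 window (chr10:30842802-30843033, minus strand) is shown for its match, in capitals as the reverse complement of GTGGGAA, and the Dll1 window (chr17:15376933-15377182, minus strand) as that of the member that rose, with CAGCTG in capitals. Each is printed 5′ to 3′, without bases inside the annotated gene.
Hey2: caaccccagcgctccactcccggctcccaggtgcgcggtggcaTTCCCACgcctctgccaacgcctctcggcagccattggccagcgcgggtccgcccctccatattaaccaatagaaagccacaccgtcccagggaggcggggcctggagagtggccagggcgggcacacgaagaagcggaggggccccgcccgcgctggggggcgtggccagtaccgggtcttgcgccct
Dll1: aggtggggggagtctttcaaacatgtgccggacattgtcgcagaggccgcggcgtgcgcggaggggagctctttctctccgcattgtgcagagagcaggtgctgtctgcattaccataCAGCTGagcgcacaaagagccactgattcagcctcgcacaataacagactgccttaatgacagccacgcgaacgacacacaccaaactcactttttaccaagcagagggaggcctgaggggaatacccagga
These matches are letters in a window, not measured binding.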

How the data were processed

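Total RNA was sequenced from 8 libraries, 2 for each of TF, TE, SF and SE, grouped by the labels. The authors deposited estimated counts per gene symbol (expected counts, not normalized); the submitters' processing notes name CASAVA, kallisto 0.44.0, GRCm38 and mm10, and the libraries were made with a stranded total RNA kit. How transcripts were summed to genes, and the strand setting, are not given in the sources used here. Whole numbers made up 74.4% to 84.4% of each library's values, with values at 0 counted as whole. Each total of 11930961 to 21146632 counts holds Rn45s ribosomal RNA, at 7.99% to 21.3%.

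Counts were rounded, filtered with filterByExpr and scaled by TMM. The 4 groups were fitted together in edgeR 4.0.16 (R 4.3.3) with the quasi-likelihood test, and p-values were adjusted by Benjamini-Hochberg over 17582 genes for each comparison. Standard errors are the log2 fold change divided by the square root of F. Intervals of count ratios and floors of 3 counts cover counting error only. Levels per kb use the longest transcript in GENCODE M21 (GRCm38). The scripts were tested on simulated data. Alternatives were median-ratio factors, no filter, DESeq2 1.42.0, a fit of only the groups compared, a replicate block, and leaving out each library.

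All 10 members are named, with pathway genes called in at least 2 of the expansion and origin comparisons, Notch4, Jag2, Rbpj and Nrarp. Maml1, Maml2 and the pericyte genes were named after their values were seen, as were the bounds without a library chosen. Members, gene lists and tests were chosen with earlier results of these data known, and are no independent support.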

Additional observations from a re-analysis of the deposited data

How the results depend on the processing

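Of 568 values of the members under the alternatives, 511 kept their direction and their side of the threshold, 21 were no longer called, 19 were newly called and 17 changed sign, none of them called in the first place. With 1 library left out, the remaining one was assumed to vary like the other groups, and fewer samples also gave larger p-values. The members called were then 7 to 10 in TE against TF, 9 in SE against SF, 0 to 4 in TF against SF, 0 to 2 in TE against SE, 8 to 10 in TF against SE and 0 to 3 for the difference between the effects of expansion. Pathway genes called were 9 to 13, 14 to 20, 4 to 10, 0 to 6, 9 to 13 and 3 to 7 in the same order, and all genes called were 2739 to 5439, 5543 to 7048, 2639 to 5072, 653 to 1698, 2772 to 4589 and 1467 to 2996. The cause was not tested for the remaining changes. Without the filter, members called were 3 in TF against SF, 2 in TE against SE and 4 for the difference, with 11 pathway genes for the difference and 2260 of all genes in TE against SE, where the main fit called 1268. DESeq2 called 2 members in TF against SF, 2 in TE against SE and 3 for the difference, and 2147 of all genes in TE against SE. With only the 2 groups in the fit, 0 members were called in TE against SE. With the replicate block 4 pathway genes were called in TF against SF in place of 7, and the block changed no member's call. Whether libraries with the same replicate number came from the same teratoma or cell isolate is not given in the sources used here. Their deviations from the group means correlated at r = -0.023 to 0.066. Differences that arose in culture or in library preparation could hide a common source, so these values cannot decide it.

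Members that were not called and changed sign under an alternative were few. In TF against SF they were Notch2 (-0.11 with median-ratio factors and with DESeq2, -0.034 in the fit of 2 groups, and -0.12 to 0.20 over the libraries left out), Notch1 (-0.42 to 0.042 over the libraries left out), Dll4 (-1.13 to 0.93) and Hey1 (-0.55 to 0.20). In TE against SE they were Dll1 (-0.012 with median-ratio factors and with DESeq2, and -0.45 to 0.69 over the libraries left out), Notch2 (-0.53 to 0.067), Hes1 (-0.14 to 0.38) and Hey2 (-4.46 to 2.11). The difference between the effects of expansion changed sign for Notch2 (-0.58 to 0.021) and Hey2 (-4.96 to 1.60).

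Median-ratio factors moved the median of all genes by -0.19 in SE against SF, by -0.16 in TF against SF and by 0.14 for the difference. The share of calls that were higher went from 51.4% to 43.6% (DESeq2 40.8%), from 62.3% to 52.1% (DESeq2 48.7%) and from 32.8% to 42.1% (DESeq2 43.9%). Low counts limit Dll4 and Hey2 in expanded cells most, where 3 counts correspond to 0.141 to 0.172 CPM.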
